A study of Homo sapiens with 25 samples.

Results

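The mRNAs of 7 cyclins (CCNA2, CCNB1, CCNB2, CCND1, CCND3, CCNE1 and CCNE2), of the transcription factors E2F1 and E2F3 and of the kinase CDK6 were followed through RIP-seq libraries of the RNA-binding protein IGF2BP1. These 10 genes were taken by symbol out of 20044 protein-coding genes. The group was chosen on measured values of the same libraries, because CCNA2 had a large interaction between the Y396E mutant and arsenite. That interaction is therefore described without a test, as is every value of CCNA2 in a comparison that used wild-type or Y396E libraries. All 10 mRNAs passed the filter on low values. Of these, 9 exceeded the minimum of 10 CPM (counts per library, brought to the same total by TMM scaling) in all 23 libraries of the fusion protein, and CCNE2 did so in 22.

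Cyclins bind cyclin-dependent kinases and switch them on at set points of the cell cycle. D-type cyclins with CDK4 or CDK6 phosphorylate the RB protein, which frees E2F factors, and E2F1 and E2F3 then activate genes of DNA synthesis, among them those of the E-type cyclins. Cyclin E with CDK2 drives entry into S phase, cyclin A2 acts in S phase and at the entry into mitosis, and the B-type cyclins with CDK1 drive mitosis. IGF2BP1 binds many mRNAs through its KH domains, often at the letters CAU in 3′UTRs, and is known for keeping growth-related mRNAs stable and for joining stress granules.

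In this assay mCherry-IGF2BP1 was pulled down with beads against the red fluorescent tag, and the RNA that came along was sequenced. The cells were HCT116, a human colorectal carcinoma line, and all mCherry lines carried knockouts of IGF2BP2 and IGF2BP3 and the Tet-OsTIR1-PURO construct. The fusion protein was wild-type (WT), S181E, Y396E (each a glutamate put in place of a residue that can be phosphorylated) or RQ, which carries R167Q, R168Q, R174Q and R178Q. Each line received PBS as control or 500 µM sodium arsenite, an inducer of oxidative stress, for 2 h. There were 3 libraries for each line and treatment and 2 for RQ in arsenite, 23 in all, and parental HCT116 cells without the fusion gave 1 library for each treatment. The paper calls these control cells nonengineered, so they may differ from the mCherry lines in the knockouts as well as in the fusion. The fusions were delivered by lentivirus into a knockout grown from single cells, and each line was a population sorted in a narrow mCherry gate, so differences between lines come from 1 population of each genotype. Input RNA of the cells was not analysed here. Hence a change in pull-down and a change in the amount of an mRNA in the cells cannot be told apart, nor can a change in the share of cells in a cell cycle phase be told apart from a change in RNA per cell.

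The stretches below are 30 bases of 3′UTR from 5 members of different roles (an A-type, a B-type and a D-type cyclin, an E2F factor and the kinase), shown because they carry the letters that IGF2BP proteins are known to prefer. Each is the first stretch of that mRNA with the most matches to CAUA, CAUC or CAUU, which are in capitals. It is read on the mRNA strand from the MANE Select transcript in GENCODE on hg38. Of members not shown, such a stretch held 2 matches in CCND3 and 1 each in CCNB2, CCNE1 and E2F1. The CCNA2 stretch lies at chr4:121817231-121817260 (minus strand) and the CCNB1 stretch at chr5:69177681-69177710 (plus). The CCND1 stretch lies at chr11:69651698-69651727 (plus), the E2F3 stretch at chr6:20491254-20491283 (plus) and the CDK6 stretch at chr7:92614342-92614371 (minus).
CCNA2: aaaacagacccucaaauucugaCAUUCAUU
CCNB1: ugugcCAUCuguaCAUAuuacuguugCAUU
CCND1: aaaaaagCAUAaaaaCAUUuuaaaaaCAUA
E2F3: ugcCAUUuaagCAUUccuguggcaccCAUC
CDK6: accuucuguaugaCAUCaugcuuuauCAUU

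The longer 3′UTRs of the group held the most matches. The 3′UTR of CDK6 had 148 matches in 10219 bases, that of CCND1 had 41 in 3192 bases and that of E2F3 had 38 in 3284 bases, whereas CCNA2 had 9 in 1194 bases and CCNB1 had 8 in 614 bases. Per kilobase the members ran from 4.78 in E2F1 and 7.54 in CCNA2 to 15.2 in CCND3 and 17.9 in CCNB2, where the median of 8686 tested genes with such a transcript was 11.6. CCNA2 stood at percentile 20.7 of that density, E2F1 at 8.7 and CCNB2 at 92.4. The match to bases 2 to 8 of the let-7 miRNAs, CUACCUC, was in none of the 3′UTRs of the 10 mRNAs. It was in 12.2% of the 3′UTRs of all tested genes, and CCNA2 and CCNE2 each had 1 in the coding part. Shorter or shifted matches to let-7 were not searched for. The mature let-7a given by RefSeq (GRCh38.p14), with its seed at bases 2 to 8 in capitals, is shown as the sequence that CUACCUC pairs with.
hsa-let-7a-5p: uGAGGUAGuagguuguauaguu

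The total count of the 23 mCherry libraries ranged from 22246381 to 60273548, and the parental libraries had 1238013 in control and 18942497 in arsenite, so the parental control values are coarse. The mRNA of the bait, IGF2BP1, was not counted in either parental library and stood at 60.9 to 123 CPM in mCherry control and 37.2 to 81.7 CPM in mCherry arsenite libraries. Of 8 colorectal epithelial markers, 6 had a median above 10 CPM, among them EPCAM, CDH1, KRT8, KRT18 and KRT19, while CDX1 was at 0 in all 23 libraries. None of 4 leukocyte, 4 fibroblast and 4 endothelial markers had a median above 10 CPM, PTPRC and COL1A2 were at 0 in all 23 libraries, and COL1A1 reached 13.4 CPM. The summed epithelial markers ran from 685 to 1218 CPM in control and from 1568 to 2476 CPM in arsenite libraries. This rise moved with the treatment, and its part in the results below was not tested.

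To compare levels between genes, CPM were divided by the length of all annotated exons of the gene in kilobases. In WT control libraries CCND1, the main D-type cyclin of epithelial cells, stood highest at 189.7 ± 13.8 CPM per kb (SD, n = 3), far from the next gene. CCNA2 at 20.2 ± 2.15, CCNB1 at 17.1 ± 2.93, E2F1 at 16.8 ± 4.5, CDK6 at 14.1 ± 2.57, CCNB2 at 13.9 ± 2.91 and E2F3 at 13.7 ± 0.620 CPM per kb (SD, n = 3 each) followed, and each of these overlapped the next in the range of its 3 libraries. CCND3 and CCNE1, at 9.07 ± 0.430 and 8.51 ± 2.29 CPM per kb (SD, n = 3), overlapped each other and lay below E2F3. CCNE2 was lowest at 3.36 ± 0.337 CPM per kb (SD, n = 3), with no overlap. The MANE Select mRNA is shorter than the annotated exons, at 2026 against 3901 bases for CCND3 and 1488 against 2627 for CCNB2. For E2F3 it is 5036 against 5190 bases, so the order of these genes depends on the length used. In hg38 the counted genes lie at chr4:121816444-121823883 (CCNA2, ENSG00000145386.11, minus strand), chr5:69167150-69178245 (CCNB1, ENSG00000134057.15, plus) and chr15:59105146-59125045 (CCNB2, ENSG00000157456.8, plus). CCND1 (ENSG00000110092.4) lies at chr11:69641156-69654474 (plus), CCND3 (ENSG00000112576.13) at chr6:41934934-42050357 (minus), CCNE1 (ENSG00000105173.14) at chr19:29811991-29824312 (plus) and CCNE2 (ENSG00000175305.18) at chr8:94879770-94896678 (minus). E2F1 (ENSG00000101412.13) lies at chr20:33675477-33686385 (minus), E2F3 (ENSG00000112242.16) at chr6:20401879-20493714 (plus) and CDK6 (ENSG00000105810.10) at chr7:92604921-92836573 (minus). The counts cover exons only.

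CCNA2, the cyclin of S phase and entry into mitosis, had the largest log2 change with arsenite of the 10 members in WT, S181E and RQ, but not in Y396E, where CDK6, CCNB1, E2F3 and E2F1 changed more. In WT control libraries it was at 49.4, 55.8 and 61.2 CPM, and in WT arsenite libraries at 372, 318 and 333 CPM. S181E cells started higher, at 92.9, 98.6 and 89.6 CPM, and reached 431, 358 and 378 CPM in arsenite. In both lines the treatments did not overlap, and in arsenite the ranges of the 2 lines overlapped. The share of all genes without overlap between groups was not counted in any comparison. A lack of overlap, here or in the members below, is therefore not read as added support. Y396E control libraries held 91.5, 90.7 and 125 CPM, above every WT control library, and Y396E arsenite libraries held 222, 202 and 206 CPM, below every WT arsenite library. RQ libraries held 51.8, 45.9 and 48.0 CPM in control, within or below the WT range, and 291 and 243 CPM in arsenite, both below the WT libraries.

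**Figure D1:**
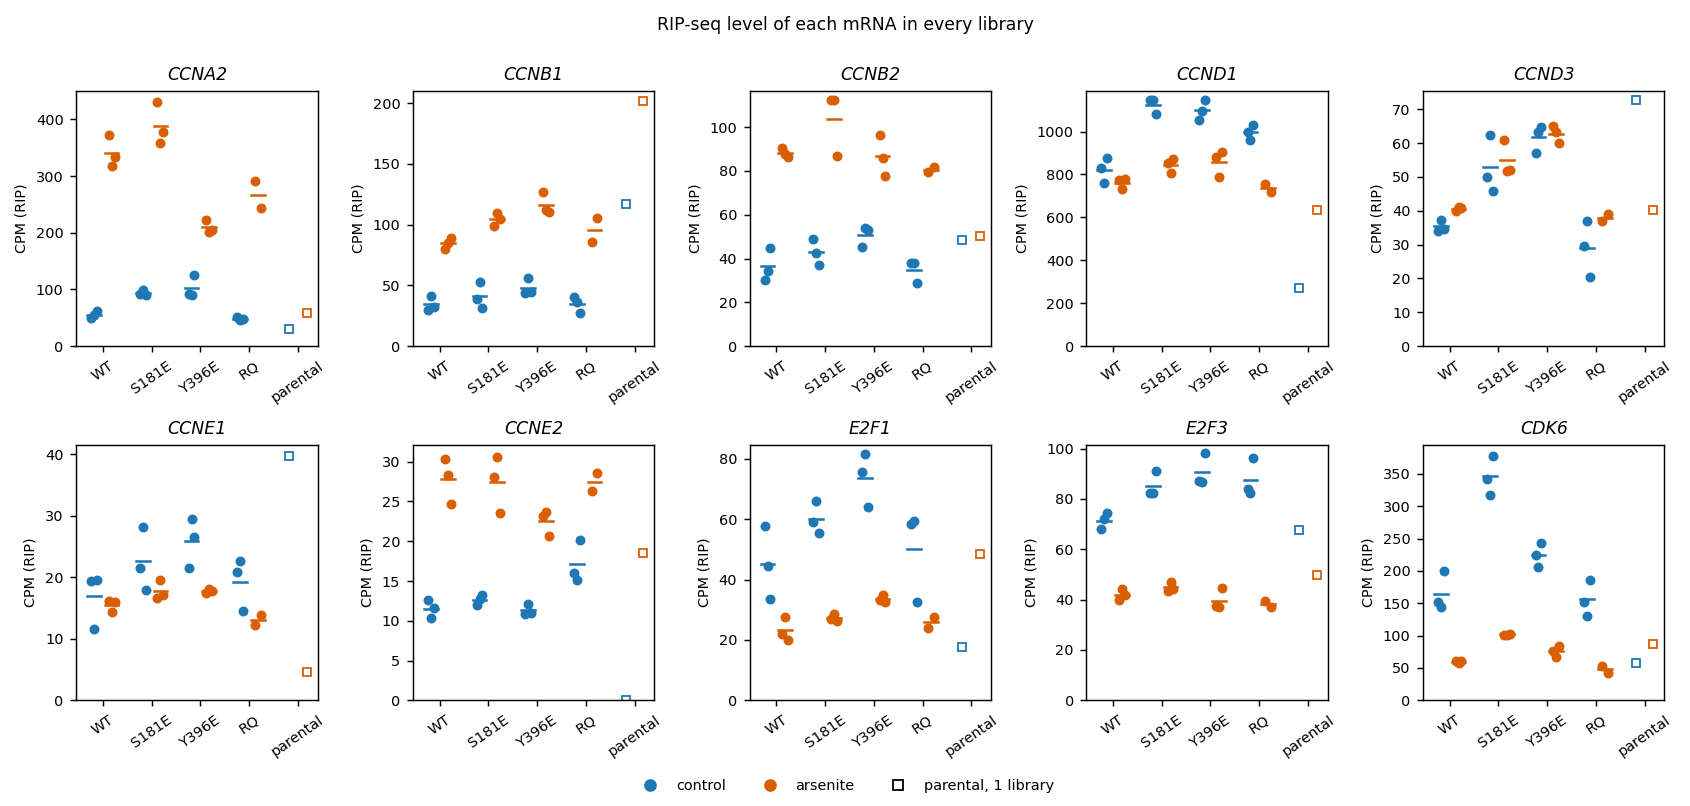
RIP-seq level in CPM (linear axis from 0) of the 10 mRNAs in each library, by line, with control libraries in blue and arsenite libraries in orange; short lines are group means and open squares the single parental libraries. In the CCNA2 panel the Y396E arsenite libraries (202 to 222 CPM) lie below those of the other lines, and its Y396E control libraries (90.7 to 125 CPM) lie above those of WT.

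On the log2 scale CCNA2 was higher by 2.61 (SE 0.13) in WT arsenite than in WT control and by 1.04 (SE 0.12) in Y396E arsenite than in Y396E control, given without a test. Between S181E libraries, which the choice of members did not use, it rose by 2.03 (SE 0.12, 4.08-fold, edgeR quasi-likelihood adjusted p = 2.1e-12), and between RQ libraries by 2.45 (SE 0.13, 5.48-fold, edgeR quasi-likelihood adjusted p = 5.7e-13). The Y396E by arsenite interaction, the value behind the choice, was -1.58 (SE 0.17) for CCNA2, rank 2 from the lowest among 8734 tested genes. It ran from -1.65 to -1.4 over the alternative settings, the latter without Y396E control replicate 3. The other 9 members lay between -0.49 (SE 0.20) for CCNB2 and -0.0093 (SE 0.23) for CCNB1, and the median over all genes was -0.06. Under some alternatives CCNB1 (up to 0.12), E2F1 (up to 0.03) and CDK6 (up to 0.0059) were above 0. Across all genes, 2.4% were called lower and 0.447% higher in it; CCNA2 was the 1 member past the call, which the choice fixed.

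The other mitotic cyclins rose with arsenite in all 4 lines. CCNB1, partner of CDK1, went from 30.2, 41.4 and 32.3 CPM in WT control to 80.4, 84.6 and 89.4 CPM in WT arsenite, and from 38.6, 53.2 and 31.1 to 99.3, 109 and 105 CPM in S181E. In Y396E it went from 44, 56.0 and 44.8 to 127, 112 and 111 CPM, and in RQ from 40.1, 36.1 and 27.3 to 85.8 and 105 CPM. No treated library overlapped a control library of its line. The log2 rise was 1.28 (SE 0.17) in WT, 1.33 (SE 0.16) in S181E, 1.28 (SE 0.16) in Y396E and 1.46 (SE 0.18) in RQ, with edgeR quasi-likelihood adjusted p of 3.7e-07, 1.9e-07, 3.5e-07 and 2e-07.

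CCNB2, the second B-type cyclin, went from 30.2, 34.2 and 45.0 to 90.7, 87.8 and 86.3 CPM in WT and from 48.9, 42.5 and 37.2 to 112, 113 and 86.8 CPM in S181E. Y396E libraries started at 45.3, 53.9 and 53.1 CPM, above every WT control library, and ended at 96.6, 86.1 and 77.7 CPM, overlapping WT. RQ libraries went from 37.8, 38.0 and 28.8 to 79.4 and 81.9 CPM. The log2 rise was 1.27 (SE 0.15, edgeR quasi-likelihood adjusted p = 8.3e-08) in WT, 1.25 (SE 0.15, edgeR adjusted p = 8.4e-08) in S181E, 0.78 (SE 0.14, edgeR adjusted p = 5.6e-05) in Y396E and 1.2 (SE 0.16, edgeR adjusted p = 7e-07) in RQ.

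Of the E-type cyclins, which start S phase with CDK2, only CCNE2 rose. It went from 12.6, 10.3 and 11.7 to 30.4, 28.4 and 24.7 CPM in WT, from 11.9, 12.8 and 13.2 to 28.1, 30.6 and 23.6 CPM in S181E, and from 10.8, 12.1 and 11 to 23.2, 23.7 and 20.7 CPM in Y396E. RQ control libraries, at 16.0, 15.2 and 20.2 CPM, lay above every other control library, and RQ arsenite libraries were at 26.4 and 28.5 CPM. Control and arsenite libraries did not overlap in any line, with log2 rises of 1.26 (SE 0.16), 1.09 (SE 0.15), 1.00 (SE 0.15) and 0.68 (SE 0.17) in WT, S181E, Y396E and RQ and edgeR quasi-likelihood adjusted p of 2e-07, 1.2e-06, 4.8e-06 and 0.001. The RQ call was lost when the scaling factors came only from genes with a level no higher than in the parental library of either treatment, here called parental-level scaling (0.37, edgeR adjusted p = 0.082).

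CCNE1 had between 11.7 and 29.5 CPM in control and between 12.2 and 19.6 CPM in arsenite libraries. It fell in Y396E by 0.53 (SE 0.20, edgeR quasi-likelihood adjusted p = 0.022) and in RQ by 0.57 (SE 0.23, edgeR adjusted p = 0.031) on the log2 scale, and the groups did not overlap there. In WT (-0.14, SE 0.20, edgeR adjusted p = 0.57) and S181E (-0.37, SE 0.20, edgeR adjusted p = 0.11) the treatments overlapped. The falls were not stable to single libraries. In Y396E the call was lost without control replicate 2 or 3 or arsenite replicate 1 or 3 (log2 -0.53 to -0.42), and in RQ without control replicate 1 or 2 or either arsenite replicate (-0.67 to -0.45), while without S181E control replicate 3 the S181E difference was called (-0.50, edgeR adjusted p = 0.047).

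The E2F factors and CDK6 fell with arsenite in all 4 lines. CDK6, which phosphorylates RB with D-type cyclins, went from 152, 144 and 199 CPM to 60.6, 57.3 and 60.9 CPM in WT and from 342, 318 and 378 to 102, 101 and 103 CPM in S181E. It went from 225, 206 and 244 to 76.5, 66.9 and 83.9 CPM in Y396E and from 152, 130 and 186 to 53.6 and 42.2 CPM in RQ. Every control library was above every arsenite library of its line. The log2 changes were -1.48 (SE 0.14), -1.79 (SE 0.14), -1.57 (SE 0.13) and -1.71 (SE 0.16) in WT, S181E, Y396E and RQ, with edgeR quasi-likelihood adjusted p of 1.9e-09, 8.1e-11, 8.2e-10 and 2.9e-09.

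E2F1, the activator first linked to RB, went from 57.6, 44.5 and 33.4 to 21.9, 27.7 and 19.8 CPM in WT, from 59.0, 66.0 and 55.4 to 27.1, 28.5 and 26.1 CPM in S181E and from 75.5, 81.5 and 64.1 to 33.4, 34.9 and 32.7 CPM in Y396E. RQ libraries went from 58.4, 59.4 and 32.6 to 24.0 and 27.6 CPM. The groups did not overlap in any line, although WT and RQ control libraries spread widely. The log2 changes were -0.99 (SE 0.19), -1.17 (SE 0.19), -1.13 (SE 0.19) and -0.97 (SE 0.22) in WT, S181E, Y396E and RQ, with edgeR quasi-likelihood adjusted p of 1e-04, 1.1e-05, 1.7e-05 and 0.00048.

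E2F3, a related activator, was tighter between replicates. It went from 67.9, 71.8 and 74.3 to 39.7, 44.2 and 41.8 CPM in WT, from 82.3, 82.4 and 91.3 to 43.6, 47.0 and 44.4 CPM in S181E, and from 87.3, 86.9 and 98.4 to 37.3, 37.0 and 44.6 CPM in Y396E. In RQ it went from 83.8, 82.5 and 96.2 to 39.5 and 37.2 CPM. No groups overlapped, and the log2 changes were -0.78 (SE 0.10), -0.95 (SE 0.10), -1.19 (SE 0.10) and -1.19 (SE 0.12) in WT, S181E, Y396E and RQ, with edgeR quasi-likelihood adjusted p of 4.2e-07, 1.9e-08, 6e-10 and 6.3e-09.

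The D-type cyclins changed little with arsenite. CCND1 was at 833, 758 and 877 CPM in WT control and 775, 733 and 779 CPM in WT arsenite, which overlapped (-0.12, SE 0.08, edgeR quasi-likelihood adjusted p = 0.19). In the mutants the control libraries were higher, at 1082 to 1145 CPM in S181E, 1056 to 1147 CPM in Y396E and 961 to 1031 CPM in RQ, and the arsenite libraries were at 808 to 872, 789 to 906 and 720 to 754 CPM. There it fell by 0.44 (SE 0.08), 0.35 (SE 0.08) and 0.44 (SE 0.09) on the log2 scale, with edgeR adjusted p of 5.1e-05, 0.00058 and 0.00023. CCND3, a D-type cyclin best known from lymphoid cells, overlapped between treatments in S181E and Y396E (log2 0.03 in both, SE 0.15 and 0.14) and did not pass in WT (0.19, SE 0.15, edgeR adjusted p = 0.26). In RQ it went from 29.7, 36.9 and 20.6 to 37.0 and 39.0 CPM (0.38, SE 0.16, edgeR adjusted p = 0.047), a call that was lost without control replicate 1 or 3 or either arsenite replicate (0.19 to 0.41). It was lost in 11 of 14 alternatives in all, among them DESeq2 (adjusted p = 0.052), total counts and parental-level scaling (0.11, edgeR adjusted p = 0.55). With parental-level scaling CCND3 was called lower in S181E and Y396E, by 0.32 (edgeR adjusted p = 0.038) and 0.31 (edgeR adjusted p = 0.041) on the log2 scale, a turn of direction, and CCND1 (-0.43, edgeR adjusted p = 0.002) and CCNE1 (-0.45, edgeR adjusted p = 0.046) were called lower in WT. That scaling moved the median of all genes to between -0.36 and -0.27 in these comparisons.

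**Figure D2:**
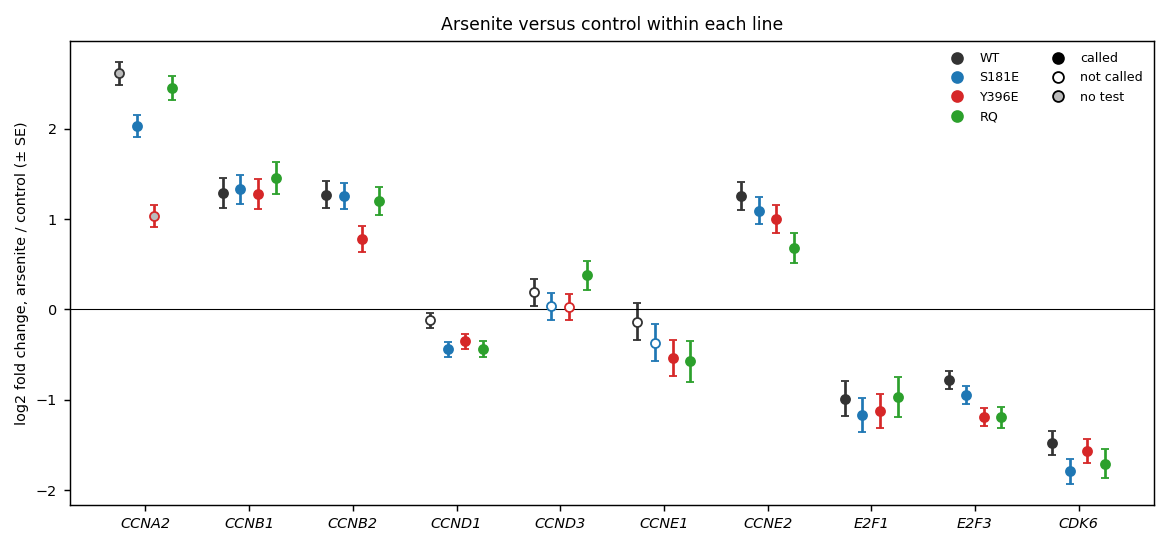
Log2 fold change of arsenite over control within each line, with its SE, for the 10 mRNAs; filled points passed the call, white points did not and grey points have no test. CCNA2, CCNB1, CCNB2 and CCNE2 lie above 0 and E2F1, E2F3 and CDK6 below 0 in all 4 lines, with CCNA2 at 1.04 in Y396E and 2.03 to 2.61 in the other lines.

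A call required an edgeR adjusted p under 0.05 together with a change of over 20%. In WT, where 9 members were tested, 3 were called lower and 3 higher, beside 31.8% of all 8734 genes called lower and 35.4% called higher. In S181E 4 of 10 were called lower and 4 higher (34.6 and 33.3% of all genes), in Y396E 5 of 9 lower and 3 higher (33.8 and 31.3%), and in RQ 5 of 10 lower and 5 higher (32.3 and 32.4%). Between 64.7 and 67.8% of all genes were called in a line, so the share of members called (6 of 9, 8 of 10, 8 of 9 and 10 of 10) is to be read against a background of about that size. Their median log2 change was -0.12 in WT, -0.17 in S181E, -0.35 in Y396E and -0.03 in RQ, where that of all genes was 0.03, -0.0026, -0.02 and -0.0045.

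Between lines the question was whether a substitution in IGF2BP1 went with another level of these mRNAs in the pull-down. The 3 mutants were set against the same WT libraries, so their comparisons share them. In control cells every called member was higher in the mutant. In Y396E 8 of 9 were called higher and none lower, beside 16.2 and 12.7% of all genes. In S181E 3 of 9 were called higher and none lower (12.8 and 8% of all genes), and in RQ 2 of 9 were called higher and none lower (3.51 and 2.83%). The mRNA of the bait was at 66.4 ± 4.82 CPM in WT, 66.3 ± 1.51 in S181E, 93.0 ± 19.3 in Y396E and 111 ± 10.4 in RQ control libraries (SD, n = 3 each), and its part in these differences was not tested.

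In Y396E control libraries the higher members were the D-type cyclins CCND1 (0.44, SE 0.08, edgeR quasi-likelihood adjusted p = 0.00035) and CCND3 (0.82, SE 0.15, edgeR adjusted p = 0.00025), with CCND3 at 57.0, 63.4 and 64.8 CPM beside 34.1, 37.3 and 34.7 CPM in WT. E2F1 (0.71, SE 0.19, edgeR adjusted p = 0.0068) and E2F3 (0.37, SE 0.10, edgeR adjusted p = 0.0082) were also higher, as were CDK6 (0.46, SE 0.13, edgeR adjusted p = 0.011) and CCNE1 (0.62, SE 0.20, edgeR adjusted p = 0.025). CCNB1 and CCNB2 were each higher by 0.50 (SE 0.16 and 0.15, edgeR adjusted p = 0.026 and 0.014). CCNE2 differed by -0.02 (SE 0.16, edgeR adjusted p = 0.95). The libraries of Y396E and WT did not overlap for any of the 8. The share of all genes without overlap was not counted, so this is not read as added support for the calls. CCNA2 differed by 0.90 (SE 0.12), without a test. The count of 8 fell to 5 without Y396E control replicate 2 or 3, and to 2 with parental-level scaling, where CCND3 and E2F1 kept their calls. With that scaling 567 of all genes were called higher and 1783 lower, against 1411 and 1112.

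In S181E control libraries CDK6 was higher by 1.08 (SE 0.13, 2.11-fold, edgeR quasi-likelihood adjusted p = 5.6e-06), the largest difference from WT among the members tested in control cells, at 318 to 378 CPM beside 144 to 199 CPM. CCND1 was higher by 0.46 (SE 0.08, edgeR adjusted p = 0.00034) and CCND3 by 0.59 (SE 0.15, edgeR adjusted p = 0.007), also without overlap. The other 6 differed by 0.14 to 0.42 without passing. Among these E2F3 did not overlap with WT (0.27, SE 0.10, edgeR adjusted p = 0.058), and it and E2F1 were called with the replicate number as a block, which raised the count to 5. The block raised the calls of all genes as well, from 1119 higher and 699 lower to 1432 and 970. CCNA2 differed by 0.77 (SE 0.12), without a test. In RQ control libraries CCND1 (0.28, SE 0.08, edgeR adjusted p = 0.043) and CCNE2 (0.56, SE 0.16, edgeR adjusted p = 0.032) were higher. The RQ count of 2 fell to 0 without WT control replicate 2 or RQ control replicate 1 or 3 and to 1 without any other single library of these groups.

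The same comparisons were made in arsenite libraries. In Y396E 4 of 9 were called higher and none lower, beside 13.1 and 19.4% of all genes. These were CCND3 (0.66, SE 0.15, edgeR quasi-likelihood adjusted p = 0.0015), with 65.1, 63.2 and 60.0 CPM beside 40.0, 41.0 and 40.9 CPM, CCNB1 (0.49, SE 0.16, edgeR adjusted p = 0.022), E2F1 (0.57, SE 0.19, edgeR adjusted p = 0.025) and CDK6 (0.38, SE 0.13, edgeR adjusted p = 0.033). None of the 4 overlapped with WT, again without a count over all genes. CCNA2 differed by -0.67 (SE 0.12), without a test, and CCNB2 by 0.01 (SE 0.14). Without WT arsenite replicate 1 or Y396E arsenite replicate 1 the count was 1, and without WT arsenite replicate 2 or 3 it was 2. With parental-level scaling it was 2, of which CCNE2 was lower (-0.49, edgeR adjusted p = 0.025). There 332 of all genes were called higher and 2670 lower, against 1146 and 1692 in the main fit.

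In S181E arsenite libraries CDK6 alone of 9 was called, higher by 0.77 (SE 0.13, edgeR quasi-likelihood adjusted p = 5e-04), with 102, 101 and 103 CPM beside 60.6, 57.3 and 60.9 CPM in WT, where 2.2% of all genes were called higher and 5.34% lower. CCND3 (0.43, SE 0.15, edgeR adjusted p = 0.076) lay above WT without overlap and was called with the replicate block (0.43, edgeR adjusted p = 0.029). Same-numbered libraries of these 2 groups deviated together, but this held in 1 of 10 comparisons, and the block fits a shared replicate effect to all groups. It also raised the calls of all genes here, from 192 higher and 466 lower to 354 and 751. In RQ arsenite libraries none of 9 was called, by edgeR or DESeq2, and 0 of the 9 had an unadjusted edgeR p under 0.05, where 0.286% of all genes were called higher and 0.218% lower and 842 of them had such a p. CDK6 was the lowest there (-0.31, SE 0.15, edgeR adjusted p = 0.53).

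**Figure D3:**
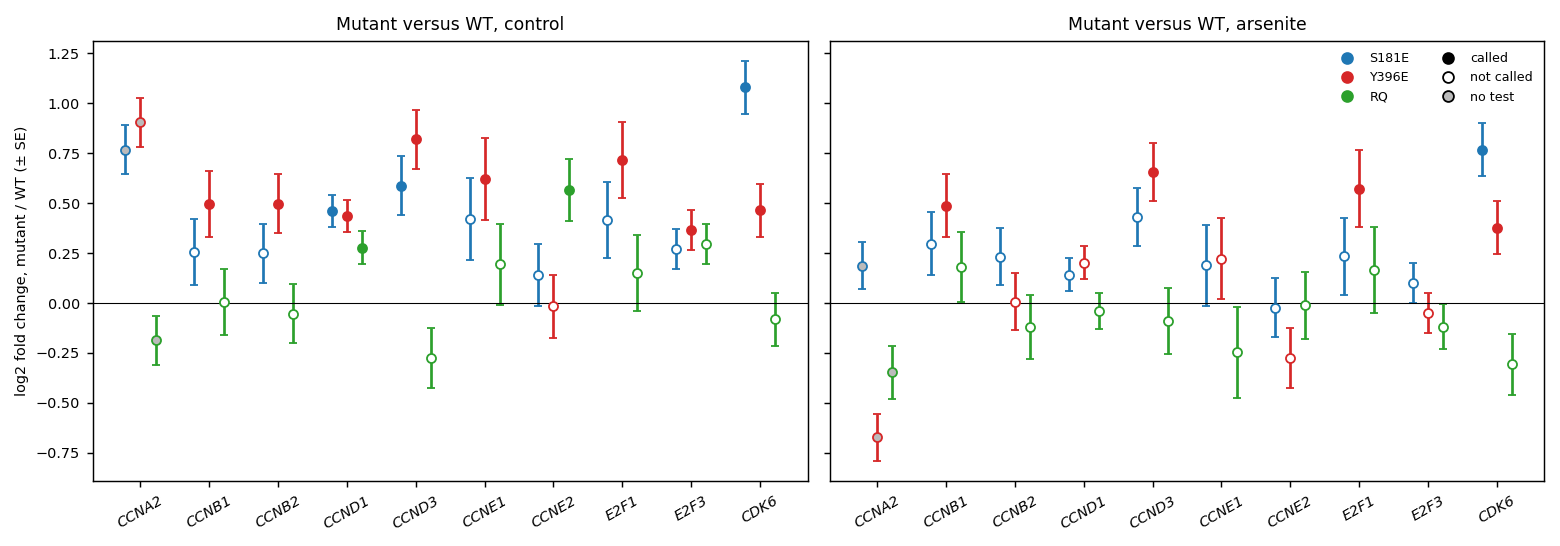
Log2 fold change of each mutant over WT, with its SE, in control (left) and arsenite libraries (right); filled points passed the call, white points did not and grey points have no test. CDK6 in S181E (1.08 and 0.77) and CCND3 in Y396E (0.82 and 0.66) lie highest among the tested points on each side, and CCNA2 in Y396E lies at 0.90 in control and -0.67 in arsenite.

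The interaction asks whether a line responded to arsenite otherwise than WT. For S181E none of 9 members was called by edgeR or DESeq2, and 1 had an unadjusted edgeR p under 0.05, beside 0.275% of all genes called lower and 0.114% higher, and 1128 genes had an unadjusted p under 0.05. The lowest were CCND1 (-0.32, SE 0.12, edgeR quasi-likelihood adjusted p = 0.23) and CDK6 (-0.31, SE 0.19, edgeR adjusted p = 0.49), and CCND1 was called with the replicate number as a block (-0.32, edgeR adjusted p = 0.047). For RQ none of 9 was called by edgeR or DESeq2, and 3 had an unadjusted edgeR p under 0.05, beside 0.0114% of all genes lower and 0.0572% higher, and 844 genes had an unadjusted p under 0.05. The lowest was CCNE2 (-0.58, SE 0.23, edgeR adjusted p = 0.39). CCNA2 had -0.58 (SE 0.17) for S181E and -0.16 (SE 0.18) for RQ, both without a test.

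The parental libraries show what the beads took from cells without the fusion, which may also lack the knockouts of the mCherry lines. The part of the knockouts in the ratios was not tested. In arsenite CCNA2 was at 58.7 CPM in the parental library, from 1357 counts (exact Poisson 95% interval 55.6 to 61.9, for counting error only), and the mean levels were 5.81, 6.62, 3.57 and 4.54 times that in WT, S181E, Y396E and RQ. No other member reached 4-fold in WT arsenite, and 9.18% of all tested genes did. CCNE1 came next at 3.36 times its 4.63 CPM. CCNB1 was higher in the parental than in any mCherry library of the same treatment, at 202 CPM in arsenite and 117 CPM in control. Its ratio in WT was 0.420 in arsenite and 0.296 in control. In WT arsenite E2F1 (0.476), CDK6 (0.686) and E2F3 (0.844) were also below the parental library. CCND1 (1.2), CCND3 (1.01), CCNE2 (1.5) and CCNB2 (1.75) were above it by scaled CPM, and of these CCNB2 alone was also above it by total counts, where CCNA2 was at 3.53.

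In control the parental CPM rest on 26 to 404 counts, and CCNE2 had none. At a floor of 3 counts (2.03 CPM) CCNE2 was at least 5.69-fold higher in WT, and at least 2.46-fold higher by total counts. CCND1 (3.02), CDK6 (2.84), E2F1 (2.57), CCNA2 (1.87) and E2F3 (1.06) were above the parental library in WT, and by total counts CCNA2 (0.804) and E2F3 (0.456) were below it. CCNB2, CCND3, CCNE1 and CCNB1 were below it by either scaling. In the mutants CCNE2 was past 4-fold as a bound in all 3 lines. CDK6 (5.96) and CCND1 (4.12) also passed in S181E, CCND1 (4.03) and E2F1 (4.2) in Y396E, and no other member in RQ. The mutant ratios were not computed by total counts, and the share of all genes past 4-fold in control was not counted. From control to arsenite the parental level of CCNA2 went from 29.7 to 58.7 CPM, that of CCNB1 from 117 to 202 CPM, that of CCNB2 from 48.6 to 50.5 CPM and that of CDK6 from 58.1 to 86.9 CPM, with no replicate.

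**Figure D4:**
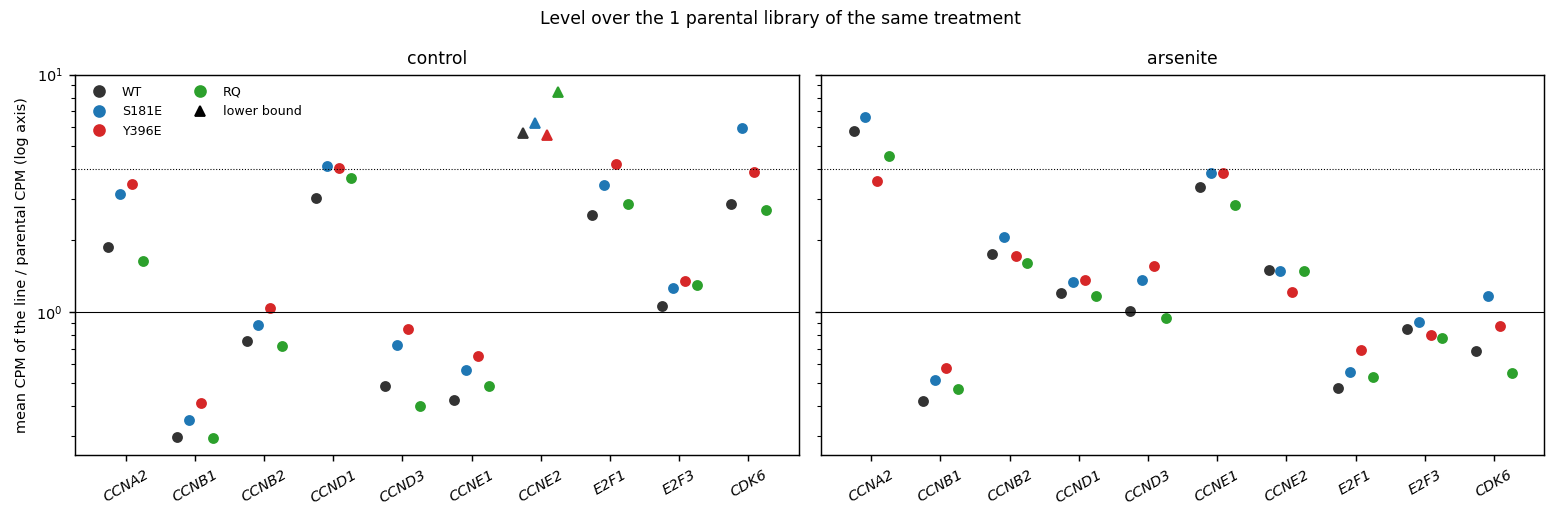
Mean CPM of each line divided by the CPM of the single parental library of the same treatment (log axis), with 1 as a solid and 4 as a dotted line; triangles are lower bounds against a floor of 3 counts. In arsenite the points above 4 are those of CCNA2 in WT, S181E and RQ, and CCNB1 lies below 1 in both treatments.

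Among tested genes outside the 10, those whose 8 group means of log2 CPM were most like those of CCNA2 were ANKMY2 (Pearson r = 0.99), DAB2, NDUFAF7, ARCN1 and TOMM34 (r = 0.99 each, over 8 group means that share libraries and scaling). ANKMY2 went from 16.7 ± 5.02 to 65.9 ± 9.60 CPM in WT (SD, n = 3) and from 24.8 ± 3.86 to 48.2 ± 2.47 CPM in Y396E (SD, n = 3). Since these genes were picked for their likeness over the same means, their levels are a description only. Within the group, CCNB2 (0.98), CCNB1 (0.93) and CCNE2 (0.84) followed CCNA2, and E2F3 (-0.86), E2F1 (-0.78) and CDK6 (-0.71) ran the other way over the same 8 means. CCND3 (0.42), CCNE1 (-0.45) and CCND1 (-0.58) lay between. The means hold both treatments, so r carries the change with arsenite as well as differences between lines. CCNB1, at 0.93, had a Y396E by arsenite interaction of -0.0093.

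The other genes of the cell cycle were taken from 7 lists with 115 genes, of which 100 were tested. With arsenite in WT, 54 (54%) were called higher and 17 (17%) lower, beside 35.4 and 31.8% of all genes, and their median log2 change was 0.45, where that of all genes was 0.03. G1/S and replication genes had 17 of 23 higher and 1 lower, with a median of 0.99. MCM4, a subunit of the replicative helicase, rose 3.36-fold, from 68.1 ± 6.01 to 231 ± 4.05 CPM (SD, n = 3, edgeR quasi-likelihood adjusted p = 5.3e-13). G2/M and mitosis genes had 15 of 23 higher and 1 lower, with a median of 0.85. CDC20, the activator of the anaphase-promoting complex, rose 4.11-fold, from 126 ± 20.5 to 522 ± 26.2 CPM (SD, n = 3, edgeR adjusted p = 8.1e-12), and the transcription factor gene MYBL2 fell by 0.50 on the log2 scale (edgeR adjusted p = 7.5e-05).

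The lists of regulators were mixed in the same comparison. Their counts are to be read against the same 35.4% of all genes called higher and 31.8% called lower. Of 13 pocket protein, E2F and DP genes 5 were higher and 5 lower. RB1 rose 3.97-fold, from 25.6 ± 5.27 to 103 ± 12.8 CPM (SD, n = 3, edgeR quasi-likelihood adjusted p = 3.5e-11), and E2F6, a repressor of the family, fell by 1.34 on the log2 scale (edgeR adjusted p = 3.1e-07). Of 13 other cyclins 4 were higher, with CCNL1, a cyclin of splicing, at 8.37-fold (edgeR adjusted p = 2.6e-16), and 3 lower, with CCNY at -0.70 (edgeR adjusted p = 4.2e-06). Of 11 other cyclin-dependent kinases 5 were higher, with CDK1, the mitotic kinase, at 2.22-fold (edgeR adjusted p = 8.3e-06), and 3 lower, with the Mediator kinase CDK19 at -1.81 (edgeR adjusted p = 1.4e-08). Of 4 CDK inhibitors tested CDKN3 was higher (2.19-fold, edgeR adjusted p = 4.1e-07) and CDKN2A lower (-0.84, edgeR adjusted p = 1.3e-06). Of 13 cyclin turnover genes 7 were higher, with CDC23 of the anaphase-promoting complex at 2.46-fold (edgeR adjusted p = 7.9e-07), and 3 lower, with FBXW7, which marks cyclin E for destruction, at -1.31 (edgeR adjusted p = 2.5e-10).

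In the mutant lines arsenite gave the 100 genes 46 calls higher and 19 lower in S181E, 46 and 24 in Y396E and 54 and 22 in RQ. Of all genes 33.3% were called higher and 34.6% lower in S181E, 31.3 and 33.8% in Y396E and 32.4 and 32.3% in RQ. Against WT in control cells 44 were higher and 6 lower in Y396E, 31 and 4 in S181E and 2 and 0 in RQ, beside 16.2 and 12.7%, 12.8 and 8%, and 3.51 and 2.83% of all genes. G1/S and replication genes made up 17 of the 44 in Y396E and G2/M and mitosis genes 12. Against WT in arsenite 28 were higher and 17 lower in Y396E, beside 13.1 and 19.4% of all genes. There G1/S and replication genes had 15 of 23 higher and 1 lower and other cyclins had 1 of 13 higher and 7 lower. PCNA, the sliding clamp of replication, was the G1/S gene that was highest over WT in Y396E arsenite libraries (1.84-fold, edgeR quasi-likelihood adjusted p = 0.0012), and MCM4 was the lowest (-0.75, edgeR adjusted p = 2.8e-06). CCNF was the cyclin that was higher (1.43-fold, edgeR adjusted p = 0.00012) and CCNG2 the lowest (-1.01, edgeR adjusted p = 0.0026).

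In the remaining lists of Y396E arsenite libraries, PKMYT1, an inhibitory kinase of CDK1, was the highest of 7 G2/M and mitosis genes called higher (1.60-fold, edgeR quasi-likelihood adjusted p = 0.0051), and MYBL2 was the least changed of them (1.32-fold, edgeR adjusted p = 0.0022). E2F5 was the lowest of 5 pocket protein, E2F and DP genes called lower (-1.80, edgeR adjusted p = 2.6e-06), with E2F2 the highest (1.47-fold, edgeR adjusted p = 0.0066). CDK2 (1.4-fold, edgeR adjusted p = 0.023) and CDK14 (-0.78, edgeR adjusted p = 0.0016) marked the ends of the kinases, and SKP2 (1.28-fold, edgeR adjusted p = 0.012) and CDC27 (-0.46, edgeR adjusted p = 0.0062) those of cyclin turnover.

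In S181E arsenite libraries 9 of the 100 were higher and 3 lower than in WT, beside 2.2 and 5.34% of all genes. MCM2 (1.39-fold, edgeR quasi-likelihood adjusted p = 0.013), TPX2 (1.39-fold, edgeR adjusted p = 0.00099), MYBL2 (1.27-fold, edgeR adjusted p = 0.022) and CDKN3 (1.46-fold, edgeR adjusted p = 0.016) were among the higher ones, as were FBXO5 (1.31-fold, edgeR adjusted p = 0.024) and SKP2 (1.32-fold, edgeR adjusted p = 0.019). MCM4 (-0.74, edgeR adjusted p = 1e-05), TFDP2 (-0.81, edgeR adjusted p = 0.005) and E2F5 (-0.90, edgeR adjusted p = 0.01) were lower. In RQ arsenite libraries none of the 100 was called by edgeR, where 842 of all genes had an unadjusted p under 0.05. Neither interaction tested, S181E or RQ, called any of them.

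**Figure D5:**
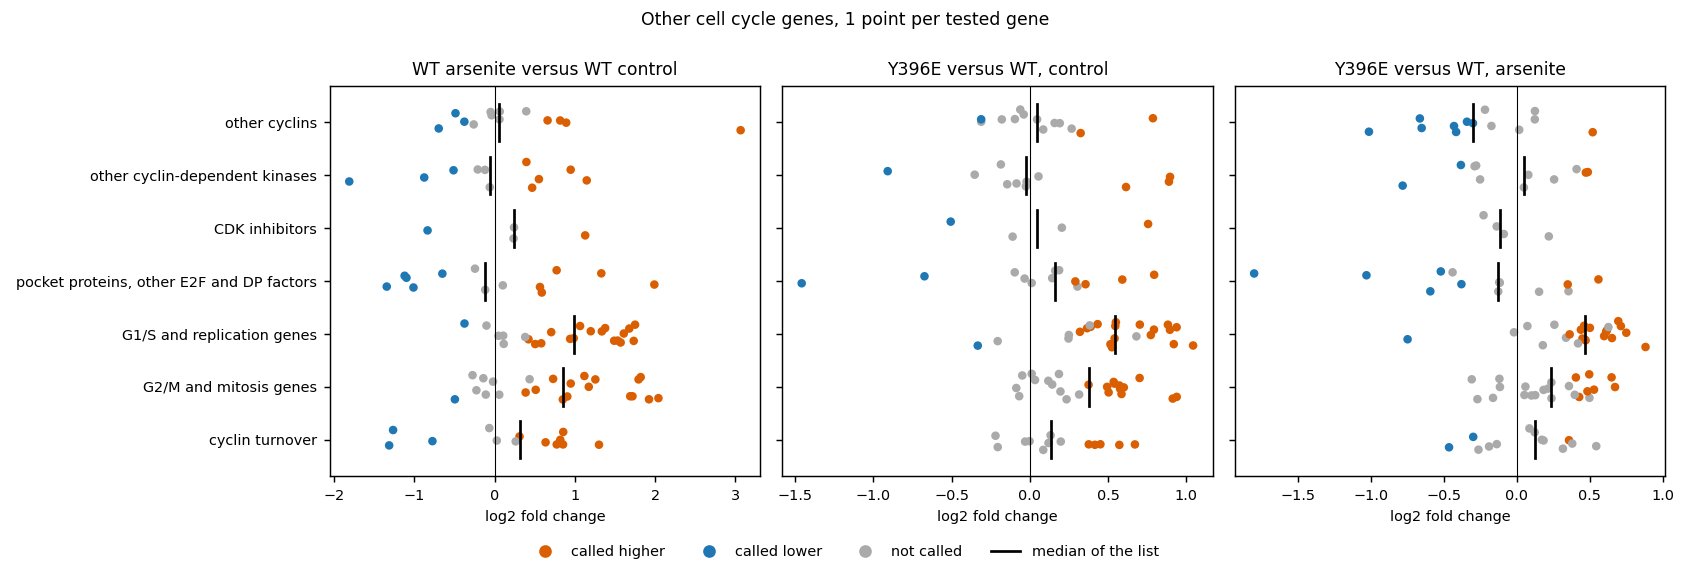
Log2 fold change of the 100 tested genes of 7 cell cycle lists, 1 point per gene, in WT arsenite over WT control and in Y396E over WT in control and in arsenite; colours mark the call and the black lines the median of a list. The G1/S and replication genes lie mostly right of 0 in all 3 comparisons, with medians of 0.99, 0.54 and 0.47.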

How the data were processed

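RIP-seq reads of 25 libraries (23 of mCherry-IGF2BP1 lines, 2 of parental HCT116 cells) were mapped by the authors with STAR 2.7.11b to hg38 and counted over the exons of GENCODE genes with featureCounts of Subread 2.0.6. The deposited files hold these raw counts per gene, with no normalization. Identifiers were named through GENCODE as supplied here, an earlier release than the one used for counting. Of 63086 identifiers 545 were not found, and 20044 were protein-coding. These were scaled by TMM and filtered to the 8734 genes that exceeded 10 CPM in 11.5 or more of 23 mCherry libraries. One edgeR 4.0.16 quasi-likelihood model (limma 3.58.1, R 4.3.3) held all 8 groups, and a gene was called at a Benjamini-Hochberg adjusted p under 0.05 over all tested genes and a change over 20%. Printed CPM were scaled over all 25 libraries.

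The members, gene lists and tests were chosen with earlier results of these data known. Besides the members and the bait, the genes named were, in each list, those called with the extreme changes in either direction in WT arsenite against control and in each mutant against WT in arsenite, and the 5 genes most like CCNA2 over group means of log2(CPM + 0.5). Dishes were grown separately, per the study's methods. Whether replicate numbers mark a shared day is not given in the sources used here. Same-numbered libraries were taken to deviate together where there were 3 pairs, each with a correlation of deviations over 0.1. This held in 1 of 10 comparisons, S181E against WT in arsenite (0.286 to 0.395). The fit with the replicate number as a block gives all groups a shared replicate effect, so it is printed as an alternative only. RQ against WT in arsenite had 2 pairs only, at 0.145 and 0.212. Total counts ran from 22246381 to 60273548 in mCherry libraries, and intervals for parental counts (exact Poisson, 95%) cover counting error only. No 2 of the 25 libraries had identical counts. Alternatives changed the normalization, filter, test (DESeq2 1.42.0, glmTreat), model and libraries. The model was tested on simulated data. RNA-Seq libraries were not analysed here. One gene that the naming rule selected is not reported here. Figures were drawn with matplotlib 3.10.9 in Python 3.11.15.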

Additional observations from a re-analysis of the deposited data

Results flagged for a closer look

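The CCNA2 level in Y396E libraries lay on opposite sides of WT in the 2 treatments. All 3 Y396E control libraries were above the 3 WT control libraries, by 0.90 on the log2 scale (SE 0.12), and all 3 Y396E arsenite libraries were below the 3 WT arsenite libraries (-0.67, SE 0.12). The members were chosen on this pattern, and the difference between the treatments was not tested.

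E2F3 also lay on opposite sides in RQ, with all 3 RQ control libraries above WT (0.30, SE 0.10) and both RQ arsenite libraries below it (-0.12, SE 0.11). Neither value passed the call (edgeR adjusted p = 0.078 and 0.81). The control value passed in 2 of 15 alternatives, the replicate block (0.29, edgeR adjusted p = 0.03) and total counts (0.39, edgeR adjusted p = 0.0072). Total counts moved the median of all genes to 0.13 in that comparison. The interaction of RQ with arsenite for E2F3 was -0.41 (SE 0.15; edgeR adjusted p = 0.33), so no difference between the treatments passed the test. Both patterns were picked out because no library of the mutant overlapped WT in either treatment.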

How the results depend on the processing

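With arsenite against control, CCNB1, CCNB2, E2F1, E2F3 and CDK6 kept their calls in all 4 lines under every alternative run, as did CCNA2 in S181E and RQ. Leaving out 1 library at a time gave 6 to 6 members called in WT, 8 to 9 in S181E, 7 to 8 in Y396E and 8 to 9 in RQ, against 6, 8, 8 and 10. With RQ arsenite reduced to 1 library, that library is assumed to vary like the other groups. CCND3 reversed under parental-level scaling (TMM factors from 1531 genes no higher than in the parental library), to -0.32 in S181E and -0.31 in Y396E; the cause was not tested.

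The mutant comparisons were less stable. For S181E against WT in control, 3 members were called, 7 with total counts (which moved the median of all genes to 0.22), 5 with the replicate block, 1 with only the groups compared, and 3 to 4 on leaving out a library. Calls over all genes moved as well, from 1119 higher and 699 lower in the main fit to 2431 and 381 with total counts. They were 1432 and 970 with the block and 178 and 247 with only the groups compared. For Y396E in control, 8 were called, 2 with parental-level scaling, 3 with glmTreat, 3 with only the groups compared, and 5 to 8 on leaving out a library. All-gene calls there went from 1411 higher and 1112 lower to 567 and 1783 with parental-level scaling. With glmTreat they were 605 and 568, and with only the groups compared 551 and 714. For RQ in control, 2 were called, 1 with DESeq2 size factors, the DESeq2 Wald test or filterByExpr, 0 with parental-level scaling, glmTreat, no filter or only the groups compared, and 0 to 1 on leaving out a library. Over all genes 307 were called higher and 247 lower in the main fit. These became 234 and 313 with DESeq2 size factors, 382 and 437 with the Wald test and 337 and 220 with filterByExpr. Parental-level scaling gave 104 and 171, glmTreat 27 and 32, no filter 284 and 215 and only the groups compared 4 and 3. In arsenite the S181E count of 1 became 3 with total counts, 2 with the DESeq2 Wald test, 2 with the replicate block, 3 with only the groups compared, and 1 to 1 on leaving out a library. All-gene calls went from 192 higher and 466 lower to 870 and 282 with total counts. They were 307 and 554 with the Wald test, 354 and 751 with the block and 866 and 1062 with only the groups compared. The Y396E count of 4 became 2 with parental-level scaling, 1 with glmTreat, and 1 to 3 on leaving out a library. Beside it, all-gene calls went from 1146 higher and 1692 lower to 332 and 2670 with that scaling. They were 383 and 901 with glmTreat. The RQ count of 0 became 1 with only the groups compared. There 481 of all genes were called higher and 556 lower, against 25 and 19 in the main fit. The S181E interaction count of 0 became 1 with the replicate block, where 63 of all genes were called higher and 207 lower, against 10 and 24. Leaving out a library gave 0 to 0 for both and for the RQ interaction. Calls of all genes on leaving out a library were not counted, so those counts stand without a background.

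At least 4-fold over the parental library, 1 member in WT control (CCNE2, as a bound) became 0 with total counts and 0 with the parental arsenite library as background. In WT arsenite 1 member (CCNA2) became 0 with total counts. Of all tested genes 9.18% were past 4-fold in WT arsenite by scaled CPM. That share was not counted for control or for total counts, so those counts stand without a background. In the 9 comparisons that did not meet the rule for pairing (correlations -0.121 to 0.452) the replicate block moved no count by over 1.5 times other than those given. The 1238013 counts of the parental control library limit every ratio to it.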
